A study of Homo sapiens with 2 samples.

Results

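Chromatin accessibility was read at the loci of 10 genes of matrix turnover, the matrix metalloproteinases MMP1, MMP2, MMP3, MMP9, MMP10, MMP13 and MMP14 and the tissue inhibitors of metalloproteinases TIMP1, TIMP2 and TIMP3, out of 20007 protein-coding genes of the GENCODE annotation. The genes were chosen by name, and every ATAC-seq peak from 50 kb upstream to 50 kb downstream of each gene was taken, with MMP10, MMP1, MMP3 and MMP13 on chromosome 11 read as a single span. The 7 spans covered 1160 kb and held 29 of the 28735 peaks of replicate 1 and 36 of the 36162 peaks of replicate 2, which merged into 38 of 37661 regions. The samples were 2 replicates of untreated, wild-type BEAS-2B (B2B) cells, an immortalized bronchial epithelial line without cancer origin, grown as a line in serum-containing medium. ATAC-seq marks accessible DNA by the adapters that the Tn5 transposase inserts, and the authors called peaks with MACS2 on each replicate alone. No other condition was analysed here, so values stand beside those of all genes or regions and no groups were tested, and whether the replicates came from separate cultures is not given in the labels.

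Matrix metalloproteinases are zinc enzymes that cut the proteins of the extracellular matrix, and TIMPs bind their active site and block it. MMP1 and MMP13 are collagenases, MMP3 and MMP10 are stromelysins that cut a broad range of matrix proteins, MMP2 and MMP9 are gelatinases, and MMP14 is a membrane-bound protease that activates the proenzyme of MMP2 together with TIMP2. The AP-1 complex of JUN and FOS proteins is a known regulator of several of these genes through sites of the letters TGACTCA or TGAGTCA, and airway epithelium is known to make MMPs during repair and inflammation.

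Of the 38 regions, 8 carried this AP-1 motif within 100 bp of their summit, and the sequences of 5 are given first, since there accessibility and the motif coincided in or near MMP and TIMP genes. The other three, in a USP36 intron, at the ZNF335 promoter and 33.3 kb upstream of TIMP2, are given by their values only. Among regions with a peak in both replicates, 4 of 18 away from promoters held the motif (22.2%), against 32.5% of all such regions. At promoters 1 of 8 held it (12.5%), against 2.79%. No such background is given for regions seen in only 1 replicate. The summit is the position of highest signal in a peak, and for a merged region that of its peak with the higher fold enrichment, which is the linear ratio of summit fragments to local background fragments in the same replicate, after adding 1 to each. All stretches are from hg38, plus strand, with the motif in capitals. They lie at chr20:45993615-45993715 upstream of MMP9, chr17:78862174-78862293 in intron 3 of TIMP2, chr17:78933515-78933615 upstream of TIMP2, chr11:102849463-102849592 upstream of MMP3 and chr14:22851495-22851595 past the end of MMP14.
MMP9, 15.2 kb upstream, peak in both replicates: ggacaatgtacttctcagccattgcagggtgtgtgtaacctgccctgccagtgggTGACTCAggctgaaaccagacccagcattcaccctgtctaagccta
TIMP2, intron 3, peak in both replicates: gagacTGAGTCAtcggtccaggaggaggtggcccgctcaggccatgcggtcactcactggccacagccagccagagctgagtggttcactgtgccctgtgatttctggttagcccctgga
TIMP2, 8.18 kb upstream, peak in both replicates: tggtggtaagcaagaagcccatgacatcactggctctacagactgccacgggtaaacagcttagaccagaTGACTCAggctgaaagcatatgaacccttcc
MMP3, 5.93 kb upstream, peak in replicate 1 only: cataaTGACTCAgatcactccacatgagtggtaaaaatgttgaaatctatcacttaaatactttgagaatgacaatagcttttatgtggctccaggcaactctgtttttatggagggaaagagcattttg
MMP14, 14960 bp downstream of the TSS, peak in replicate 2 only: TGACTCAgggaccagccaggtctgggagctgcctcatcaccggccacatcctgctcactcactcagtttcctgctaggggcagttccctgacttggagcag

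The strongest region of all spans held no AP-1 motif and is shown for its height. It lay in intron 11 of MMP2, with its summit at the centre of chr16:55500093-55500193, and the capitals mark the reverse complement of the RUNX motif TGTGGTT.
MMP2, intron 11, peak in both replicates: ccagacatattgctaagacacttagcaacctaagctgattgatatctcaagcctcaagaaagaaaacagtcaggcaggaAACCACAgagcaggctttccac

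Promoter sequences are shown for the members whose promoters are in the RefSeq table of GRCh38.p14, which were 4 of 10 (MMP10, MMP14, TIMP1 and TIMP3), since these include promoters with a peak in both replicates, in 1 replicate and in neither. The other six are MMP1, MMP2, MMP3, MMP9, MMP13 and TIMP2. Each stretch is the 250 bases before the TSS, 5′ to 3′ on the strand of the gene. They span chr11:102780629-102780878 on the minus strand for MMP10, and chr14:22836335-22836584, chrX:47582186-47582435 and chr22:32801455-32801704 on the plus strand for MMP14, TIMP1 and TIMP3. Capitals mark TGANTCA in MMP10, the SP motif GGGCGG or its reverse complement CCGCCC in MMP14, TIMP1 and TIMP3, and TGTGGTT in TIMP1.
MMP10 promoter, peak in replicate 1 only: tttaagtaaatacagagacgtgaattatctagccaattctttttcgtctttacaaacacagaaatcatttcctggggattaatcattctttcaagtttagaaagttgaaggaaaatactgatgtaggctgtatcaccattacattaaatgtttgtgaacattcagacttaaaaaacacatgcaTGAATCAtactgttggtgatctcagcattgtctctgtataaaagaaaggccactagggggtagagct
MMP14 promoter, peak in replicate 2 only: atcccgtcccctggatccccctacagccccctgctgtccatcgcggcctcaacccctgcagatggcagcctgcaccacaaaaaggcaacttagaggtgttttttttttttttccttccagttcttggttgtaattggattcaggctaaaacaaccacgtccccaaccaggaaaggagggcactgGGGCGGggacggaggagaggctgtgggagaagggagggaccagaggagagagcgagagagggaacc
TIMP1 promoter, peak in both replicates: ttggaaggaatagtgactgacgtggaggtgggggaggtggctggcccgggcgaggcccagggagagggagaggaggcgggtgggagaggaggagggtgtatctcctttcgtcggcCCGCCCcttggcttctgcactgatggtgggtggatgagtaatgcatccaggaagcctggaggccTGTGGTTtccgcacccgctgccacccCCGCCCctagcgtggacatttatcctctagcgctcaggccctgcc
TIMP3 promoter, no peak: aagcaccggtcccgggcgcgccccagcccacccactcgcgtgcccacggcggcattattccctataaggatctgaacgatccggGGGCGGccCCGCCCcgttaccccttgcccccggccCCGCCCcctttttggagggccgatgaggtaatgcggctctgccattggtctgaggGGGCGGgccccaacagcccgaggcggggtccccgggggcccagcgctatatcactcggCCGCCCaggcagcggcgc

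Of the 10 promoters, 2 had a peak at most 1 kb from the TSS in each replicate, TIMP1 and TIMP2, against 52.3% of all protein-coding genes. Counting a peak in either replicate gave 4 of 10, with MMP10 in replicate 1 and MMP14 in replicate 2, against 59.0% of all genes. No peak was listed at the promoters of MMP1, MMP2, MMP3, MMP9, MMP13 and TIMP3 in either replicate. The lowest peak in the lists had 16 fragments at its summit in replicate 1 and 13 in replicate 2, so accessibility weaker than that could not be detected and a promoter absent from the lists may still be open. The TSS was that of the Ensembl canonical transcript in GENCODE 44. With the TSS of any annotated transcript, or with a window of 3 kb, 3 promoters had a peak in both replicates, the third being MMP2. No share of all genes is given at these settings, so these counts have no background.

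The promoter peaks of the TIMP genes were low in both replicates. The TIMP1 promoter peak had a fold enrichment of 4.50 in replicate 1 (25 fragments at the summit, −log10 q of 8.18) and 6.57 in replicate 2 (28 fragments, −log10 q of 14.0), a mean of 5.54 ± 1.46 (SD, n = 2). The TIMP2 promoter peak had 4.16 in replicate 1 (23 fragments, −log10 q of 6.77) and 7.02 in replicate 2 (30 fragments, −log10 q of 15.9), a mean of 5.59 ± 2.03 (SD, n = 2). Of these 2 inhibitor promoters TIMP1 was the higher in replicate 1 and TIMP2 in replicate 2, and in each gene replicate 2 gave the higher value. Their summits lay close to the TSS, at -148 and -77 bp in TIMP1 and at -5 and -11 bp in TIMP2. The replicate-only peaks were of like height, 4.33-fold enriched at MMP10 in replicate 1 (24 fragments, −log10 q of 7.47) and 5.44-fold at MMP14 in replicate 2 (23 fragments, −log10 q of 9.67). The MMP10 summit was 31 bp upstream of its TSS and the MMP14 summit lay at -180 bp. For comparison, the median promoter peak over all genes had a fold enrichment of 7.97 in replicate 1 and 9.06 in replicate 2. In replicate 1 the peak of MMP10 exceeded 5.92% of all promoter peaks, that of TIMP1 7.90% and that of TIMP2 4.23%. In replicate 2 the peak of MMP14 exceeded 13.1%, that of TIMP1 24.9% and that of TIMP2 29.3%.

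**Figure D1:**
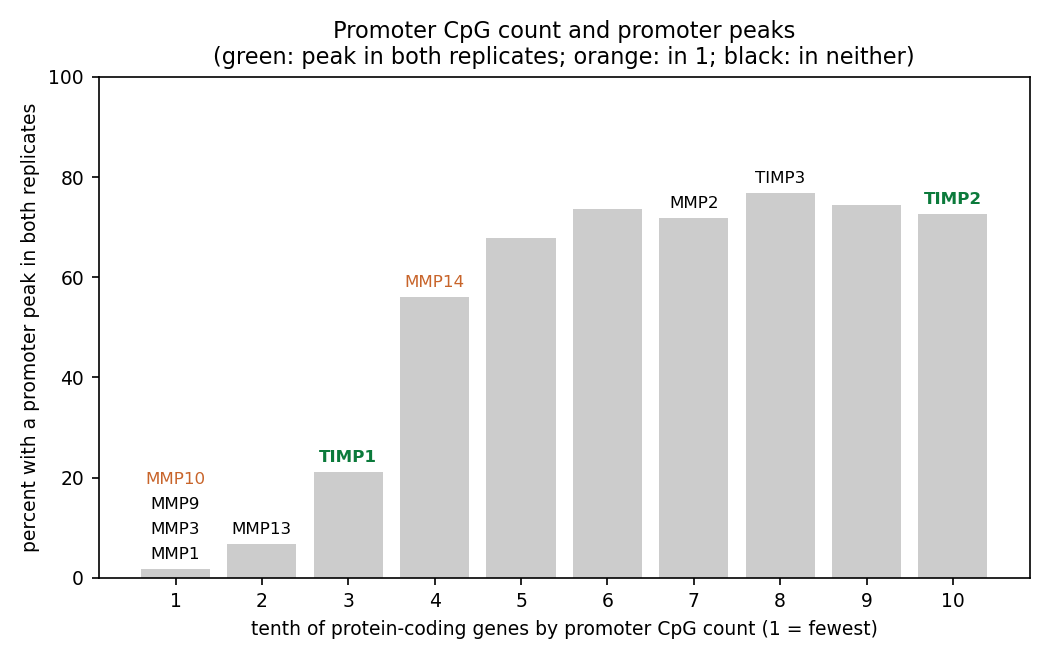
Bars give the percent of protein-coding genes with a promoter peak in both replicates (vertical axis) for 10 groups of genes of equal size, ordered by the number of CpG dinucleotides within 500 bp of the TSS (horizontal axis, 1 = fewest). Names above the bars mark the group of each MMP or TIMP gene, in green with a peak in both replicates (TIMP1 and TIMP2), orange with a peak in 1 (MMP10 and MMP14) and black with none, and MMP2 and TIMP3 stand without a peak above groups in which 71.8% and 76.8% of genes had one.

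The percent of genes with a promoter peak in both replicates was 1.80% in the group of fewest CpGs and 72.6% in that of most, so the members were also read within groups of like CpG count. The plot of promoter peaks by CpG count shows that the members fell at both ends of this scale. The collagenases, stromelysins and MMP9 were CpG-poor, with 7 CpGs within 500 bp of the TSS in MMP1, 4 in MMP3, 5 in MMP10, 8 in MMP9 and 19 in MMP13, against a median of 66 over all genes. TIMP1 had 32. Of these 6 genes, all in the 3 groups of lowest CpG count, 1 had a promoter peak in both replicates, TIMP1, against 9.86% of all genes in those groups. By single group the share was 1.80% in that of MMP1, MMP3, MMP9 and MMP10, 6.75% in that of MMP13 and 21.1% in that of TIMP1. MMP2 with 78 CpGs, TIMP3 with 90 and TIMP2 with 124 were in the 4 groups of highest CpG count, where 73.9% of genes had a promoter peak in both replicates. Of these 3 genes TIMP2 alone had such a peak. MMP14, the remaining member, had 46 CpGs, and 56.0% of genes in its group had a promoter peak in both replicates.

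Motif matches in the 4 printed promoters are given as descriptions of these letters. The stromelysin MMP10 carried TGAATCA starting 67 bases before the TSS, at -67, a match to TGANTCA, which 6.57% of 35116 promoter stretches of the same length held on either strand. None of the 4 held TGACTCA or TGAGTCA, which 4.20% of all stretches held. The promoters of MMP1, MMP2, MMP3, MMP9, MMP13 and TIMP2 were not among the printed stretches, so nothing is said of their motifs. The SP motif GGGCGG, found in 42.6% of all stretches, occurred at -66 in MMP14, at -135 and -45 in TIMP1 and 5 times in TIMP3, at -166, -158, -131, -76 and -18. TIMP1 also held TGTGGTT at -71, which 3.65% of all stretches held. The TIMP3 promoter thus had the most SP matches of the 4 and a GC content of 72.4%, with no peak in either replicate, whereas MMP10 had a GC content of 34.4% and a peak in replicate 1.

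**Figure D2:**
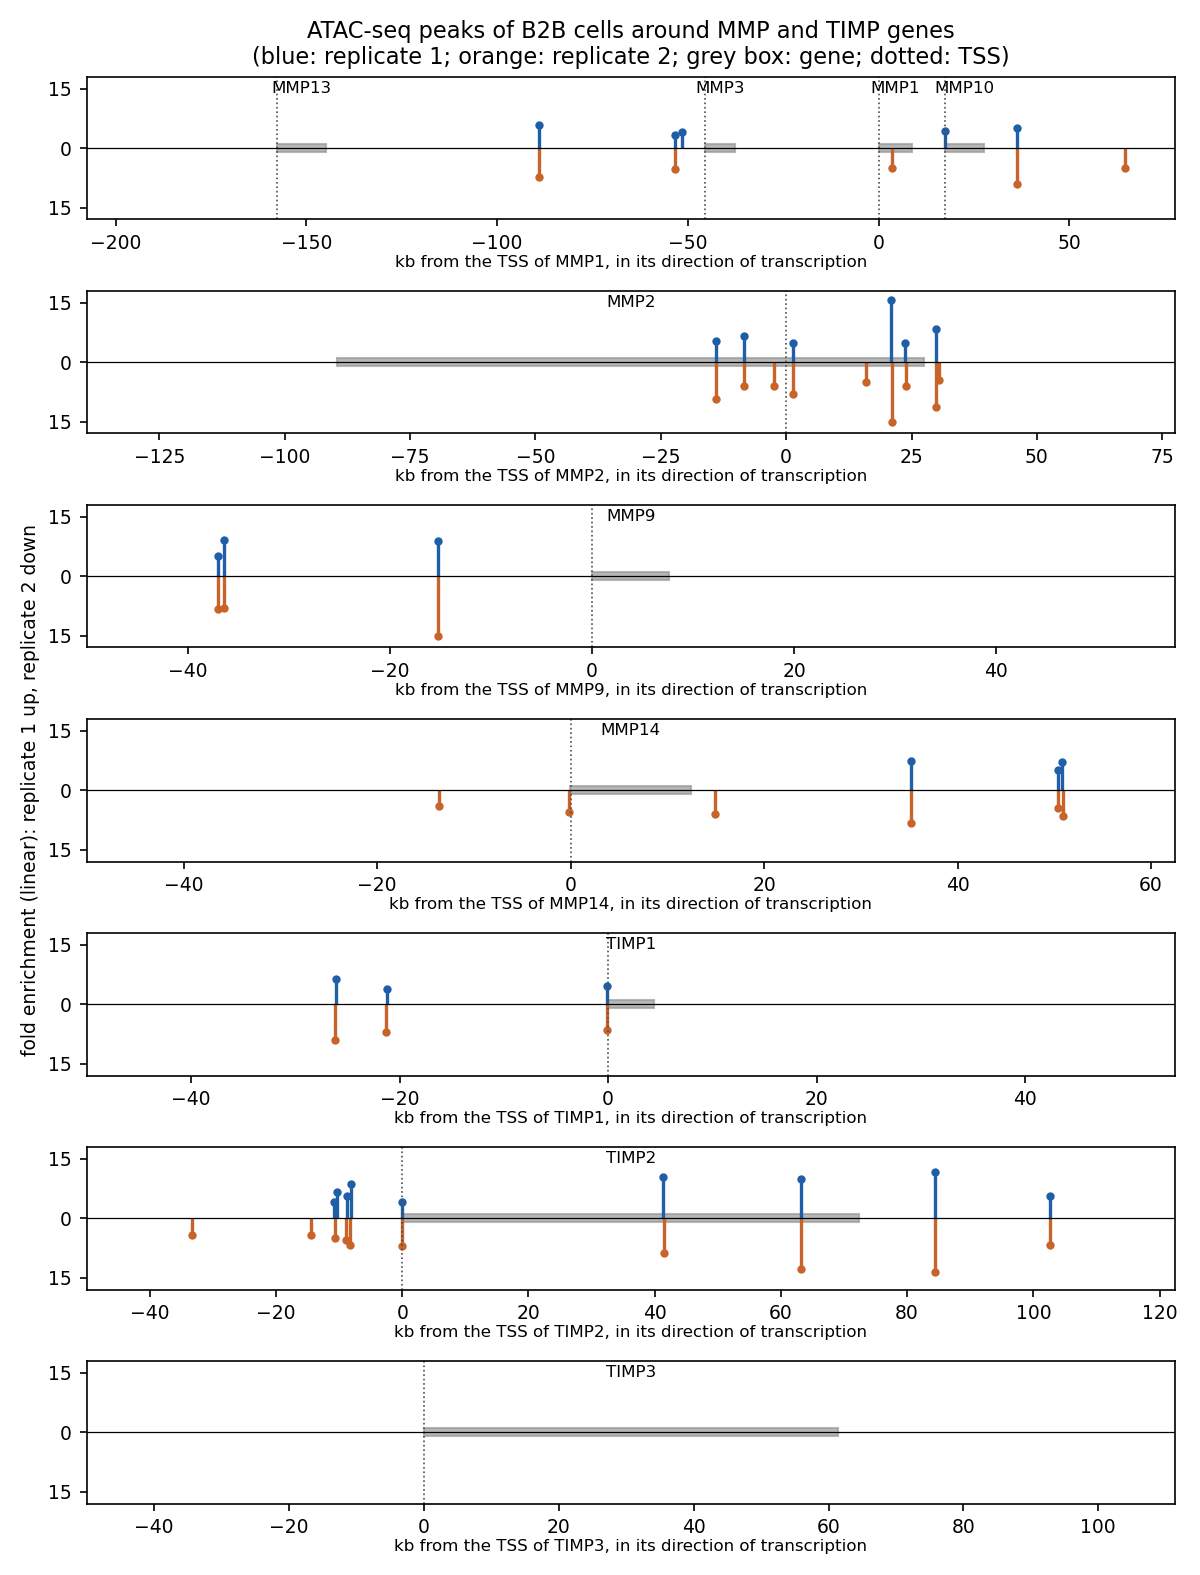
Each panel is 1 span, with the position relative to the TSS of the named gene in kb on the horizontal axis and the fold enrichment of each peak on a linear vertical axis, replicate 1 upwards in blue and replicate 2 downwards in orange. Grey boxes are genes and dotted lines are their TSSs. The highest bars stand near the 3′ end of MMP2 at 15.6 and 15.2, upstream of MMP9, and at TIMP2 and the USP36 promoter, and the TIMP3 panel is empty.

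The map of peaks along the spans shows how unevenly the accessible regions were spread. Of the 38 regions, 26 had a peak in both replicates (68.4%, against 67.4% of all regions), 2 in replicate 1 only and 10 in replicate 2 only. Shared regions, meaning those with a peak in both replicates, numbered 2.24 per 100 kb over the 7 spans, against 0.821 per 100 kb of the genome and a median of 1.54 around single protein-coding genes. The value of the spans is pooled over their length, whereas the median is over values of single genes. The span of TIMP2 was the densest with 4.64 shared regions per 100 kb, above 92.7% of genes. TIMP1 followed with 2.87, MMP9 with 2.79, MMP2 with 2.77 and MMP14 with 2.67. The chromosome 11 span had 1.05 and TIMP3 had none. Within that span, read gene by gene, MMP3 stood above 59.6% of genes, MMP1 above 34.1% and MMP10 above 33.5%, and MMP13 had no shared region. By single genes, 8 of the 10 had at least 1 peak of either replicate between 50 kb upstream and 50 kb downstream, all but MMP13 and TIMP3, against 88.7% of all genes. Of the 26 shared regions, 8 were at promoters, of which 2 were those of TIMP1 and TIMP2 and the other six belonged to neighbouring genes. The remaining 18 were distal, with summits over 1 kb from the canonical TSS of every protein-coding gene.

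**Figure D3:**
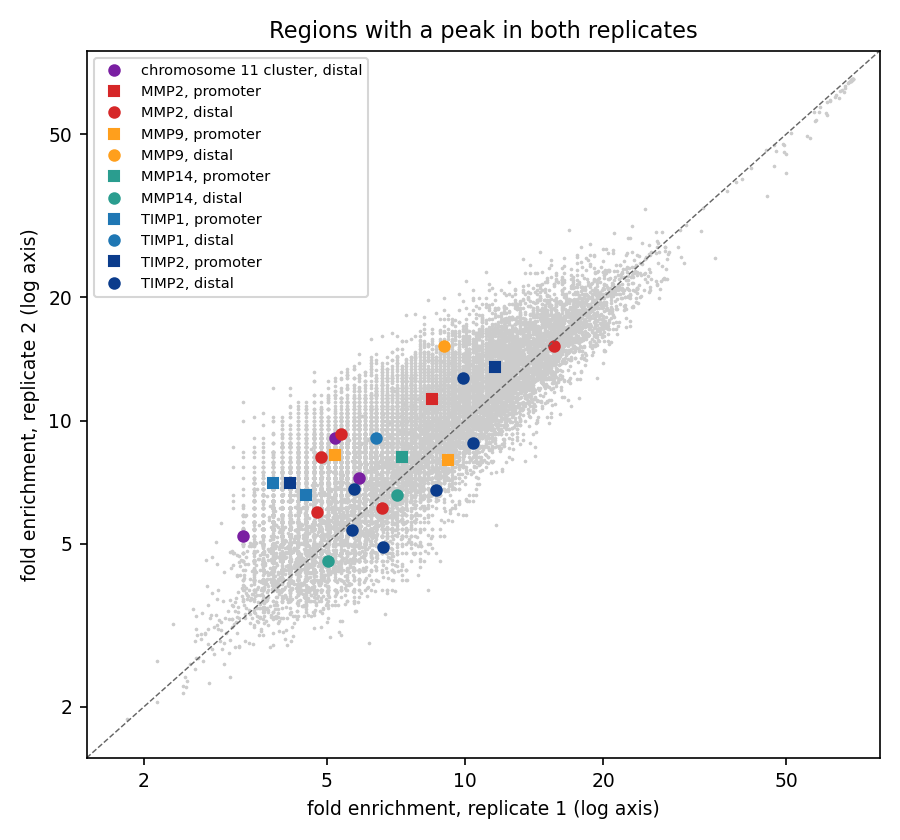
Fold enrichment of shared regions, replicate 1 on the horizontal and replicate 2 on the vertical axis, both logarithmic. Grey points are all 25366 such regions, coloured points the 26 in the MMP and TIMP spans (squares, promoters of any gene; circles, distal regions), and the dashed line marks equal values. The MMP2 intron 11 region lies farthest up the line, and 17 of the 26 lie above it.

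Heights of the shared regions can be followed in the plot of the replicates against each other. The 26 regions had a median fold enrichment of 6.15 in replicate 1 and 7.64 in replicate 2, near the medians of 6.41 and 8.01 over all 25366 shared regions, whose values in the replicates had a Spearman correlation of 0.809 across regions. Replicate 2 was higher in 17 of the 26, against 74.7% of all shared regions. Regions seen in only 1 replicate were low. Their fold enrichment was 4.16 and 4.33 in the 2 of replicate 1 and between 4.08 and 6.12, with a median of 4.98, in the 10 of replicate 2.

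The gelatinase MMP2 (chr16:55389700-55506691, plus strand, canonical TSS at 55479198) had no peak within 1 kb of its canonical TSS but 5 distal shared regions in its span, all inside the annotated gene. The region in intron 11, at chr16:55499893-55500390 and 20.9 kb downstream of the TSS, had a fold enrichment of 15.6 in replicate 1 from 99 fragments and 15.2 in replicate 2 from 102 fragments, a mean of 15.4 ± 0.323 (SD, n = 2). It was the highest of all 26 and stood above 94.2% of all shared regions. A lower region in intron 1, at chr16:55480368-55480633 and 1.30 kb downstream of the canonical TSS, had 4.85 in replicate 1 and 8.16 in replicate 2, a mean of 6.50 ± 2.34 (SD, n = 2). Its summit was 35 bp from the TSS of another annotated MMP2 transcript, which is why MMP2 counts as having a promoter peak when any annotated TSS is used. Regions 13.9 kb and 8.31 kb upstream of the canonical TSS, within transcripts that begin farther upstream, had means of 7.33 ± 2.77 and 6.35 ± 0.330 (SD, n = 2). The last, in intron 12 at 23.8 kb, had 5.36 ± 0.862 (SD, n = 2). Replicate 2 alone had weak peaks 2.36 kb upstream (5.89), in intron 9 at 16.0 kb (4.98) and near the promoter of LPCAT2 (4.53). The promoter of LPCAT2 itself, a neighbouring gene of phospholipid remodelling, was the sixth shared region with a mean of 9.91 ± 2.01 (SD, n = 2).

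The other gelatinase, MMP9 (chr20:46008908-46016561, plus strand), had neither a promoter peak nor a peak within the gene. Its nearest peak was the intergenic region at chr20:45993494-45993840, 15.2 kb upstream of the TSS, whose sequence with TGACTCA is printed above. The fold enrichment there was 9.01 in replicate 1 from 51 fragments and 15.2 in replicate 2 from 66 fragments, a mean of 12.1 ± 4.36 (SD, n = 2), above 85.4% of all shared regions. The motif was centred 8 bp from the summit, the closest of the AP-1 matches in the spans. Both remaining regions of the span were at the promoter of ZNF335, with means of 6.72 ± 2.15 and 8.61 ± 0.812 (SD, n = 2), and the latter held TGACTCA centred 84 bp from its summit. Downstream of the region at 15.2 kb no peak of either replicate was found for 95.4 kb, a stretch that held the TSSs of MMP9 and of SLC12A5. It was longer than that of 72.7% of genes.

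The chromosome 11 cluster holds both collagenases and both stromelysins, all on the minus strand, with MMP10 at chr11:102770502-102780628, MMP1 at chr11:102789401-102798160, MMP3 at chr11:102835801-102843609 and MMP13 at chr11:102942995-102955732. Its span of 285 kb held 7 regions, of which 3 were shared, all intergenic, and none of these 3 held the AP-1 motif within 100 bp of the summit. The first shared region lay 18.8 kb downstream of the TSS of MMP10 and had 5.20 in replicate 1 and 9.06 in replicate 2, a mean of 7.13 ± 2.73 (SD, n = 2). The second, 8.03 kb upstream of MMP3, was the lowest of the 26 shared regions with 3.29 and 5.21, a mean of 4.25 ± 1.36 (SD, n = 2). The third, 43.6 kb upstream of MMP3, had 5.89 and 7.25, a mean of 6.57 ± 0.961 (SD, n = 2). The 4 regions of single replicates included the MMP10 promoter and a region 5.93 kb upstream of MMP3 with TGACTCA and a fold enrichment of 4.16, both in replicate 1. In replicate 2 they were a region in intron 6 of MMP1, 3.54 kb downstream of its canonical TSS and 153 bp from the TSS of another MMP1 transcript, and a region 47.1 kb downstream of the TSS of MMP10, both with a fold enrichment of 4.98. MMP13 lay in a stretch of 149 kb without a peak, longer than that of 78.9% of genes. Its nearest peaks were 68.4 kb and 68.5 kb from its TSS in replicates 1 and 2. Extended to all 9 MMP genes from MMP7 to MMP13, a span of 535 kb, the cluster held 5 shared regions, no promoter with a peak in both replicates and 1 promoter, that of MMP10, with a peak in either.

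MMP14 (chr14:22836560-22849041, plus strand) had 3 regions near the gene, all in replicate 2 only. They lay at the promoter, 14960 bp downstream of the TSS, where the sequence printed above with TGACTCA had a fold enrichment of 6.12 from 26 fragments, and 13.6 kb upstream in SLC7A7, with 4.08. In replicate 1 the nearest peak was 35.0 kb from the TSS, whereas in replicate 2 it was 0.040 kb away. The shared regions of the span were at neighbours, the promoter of the lipoprotein receptor gene LRP10 with a mean of 7.72 ± 0.622, and exons of the GTPase gene REM2 with 4.78 ± 0.349 and 6.84 ± 0.377 (SD, n = 2).

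TIMP1 (chrX:47582408-47586789, plus strand), which encodes a secreted inhibitor that also binds the proenzyme of MMP9, lies inside SYN1 on the opposite strand. Beside its promoter the span held an intergenic region 26.2 kb upstream with 6.41 in replicate 1 and 9.06 in replicate 2, a mean of 7.74 ± 1.88 (SD, n = 2), and the promoter of the kinase gene ARAF, with 3.81 and 7.02, a mean of 5.42 ± 2.27 (SD, n = 2). All 3 regions were shared and in all 3 replicate 2 was higher.

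TIMP2 (chr17:78852977-78925387, minus strand), the inhibitor that takes part in the activation of the MMP2 proenzyme, had 8 shared regions in its span, 6 of them distal. The highest distal region was in intron 3, at chr17:78862105-78862615, with 9.88 in replicate 1 and 12.7 in replicate 2, a mean of 11.3 ± 1.99 (SD, n = 2), and held TGAGTCA centred at -61 bp from the summit. A wide region of 1048 bp in intron 1, at chr17:78883120-78884167, had 10.4 and 8.83, a mean of 9.62 ± 1.12 (SD, n = 2), with none of the motifs searched within 100 bp of its summit. Both exceeded the TIMP2 promoter peak in each replicate. Upstream of the gene 3 shared regions lay close together, 8.18, 8.81 and 10.4 kb from the TSS, with means of 7.70 ± 1.34, 5.54 ± 0.185 and 5.77 ± 1.23 (SD, n = 2). The farthest held 2 peaks in replicate 1, of 6.64 and 4.06, and the higher was used. The replicate 2 summit there, with 4.90, lay within the lower of these 2 peaks, so the mean pairs separate summits. In the regions at 8.18 and 8.81 kb replicate 1 was higher. The nearest of the 3 to the gene, with 58 fragments in replicate 1 and 45 in replicate 2, held TGACTCA. The last shared distal region was in an intron of the deubiquitinase gene USP36, with 6.26 ± 0.763 (SD, n = 2) and TGACTCA. The USP36 promoter was the highest promoter in any of the spans at 12.5 ± 1.36 (SD, n = 2). Replicate 2 alone had peaks 14.5 and 33.3 kb upstream, both with 4.30, and the farther held TGACTCA.

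**Figure D4:**
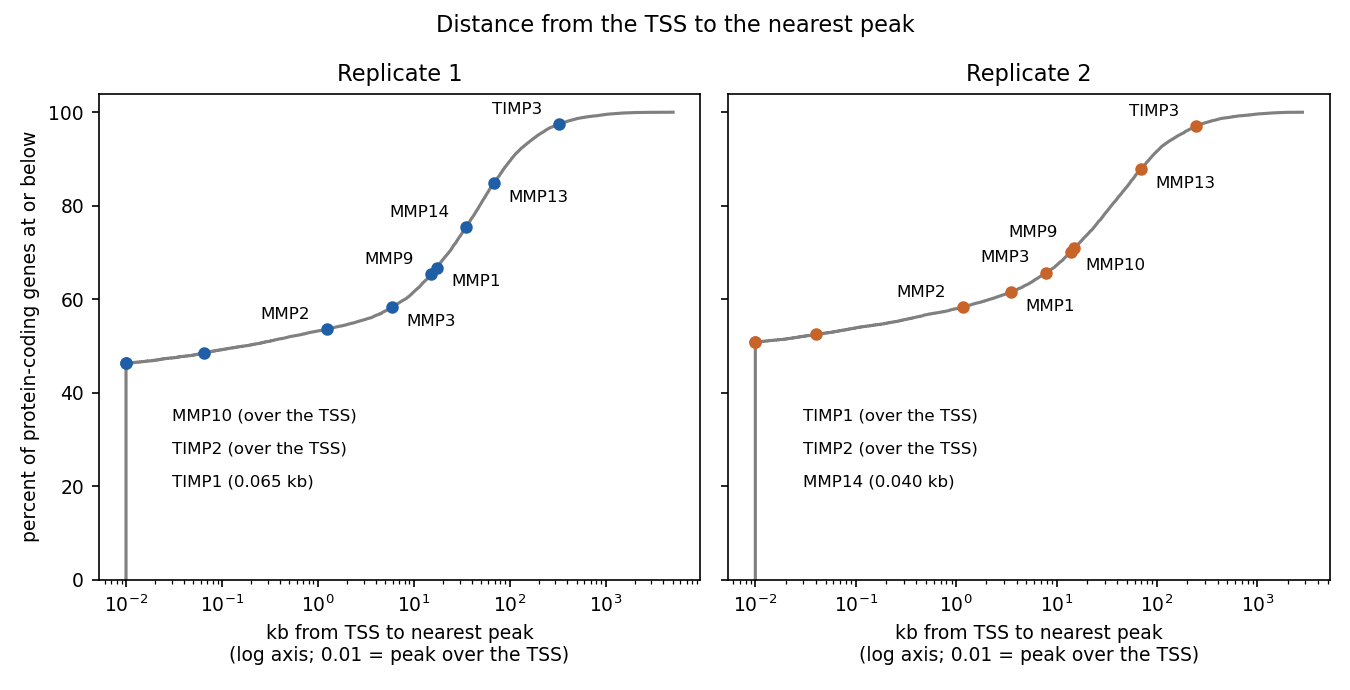
The grey line gives the percent of protein-coding genes (vertical axis) whose TSS lies at or below a given distance from the nearest peak (horizontal axis, kb, logarithmic), for replicate 1 on the left and replicate 2 on the right, with peaks over the TSS drawn at 0.01 kb. Coloured points are the 10 MMP and TIMP genes, and TIMP3 lies at the upper end at 326 kb and 243 kb.

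TIMP3 (chr22:32801705-32863041, plus strand), the matrix-bound inhibitor, lies inside SYN3 on the opposite strand and had no peak of either replicate in its span of 161 kb. The plot of distances to the nearest peak places it 326 kb from a peak in replicate 1, farther than 97.4% of genes, and 243 kb in replicate 2, farther than 96.9%. The stretch without a peak of either replicate, at chr22:32558976-33438316, was 879 kb long and held the TSSs of SYN3 and TIMP3 and of no other protein-coding gene. It was longer than that of 96.5% of all protein-coding genes. Of the 8003 genes in the 4 groups of highest promoter CpG count, to which TIMP3 belongs, 126 (1.57%) had a TSS in a stretch at least as long. In the same plot MMP1, MMP3, MMP9 and MMP2 take middle places, with nearest peaks between 1.17 and 17.4 kb over both replicates. The position of MMP14 and MMP10 changed with the replicate, and the nearest peak of MMP10 was over the TSS in replicate 1 and 13.9 kb away in replicate 2.

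**Figure D5:**
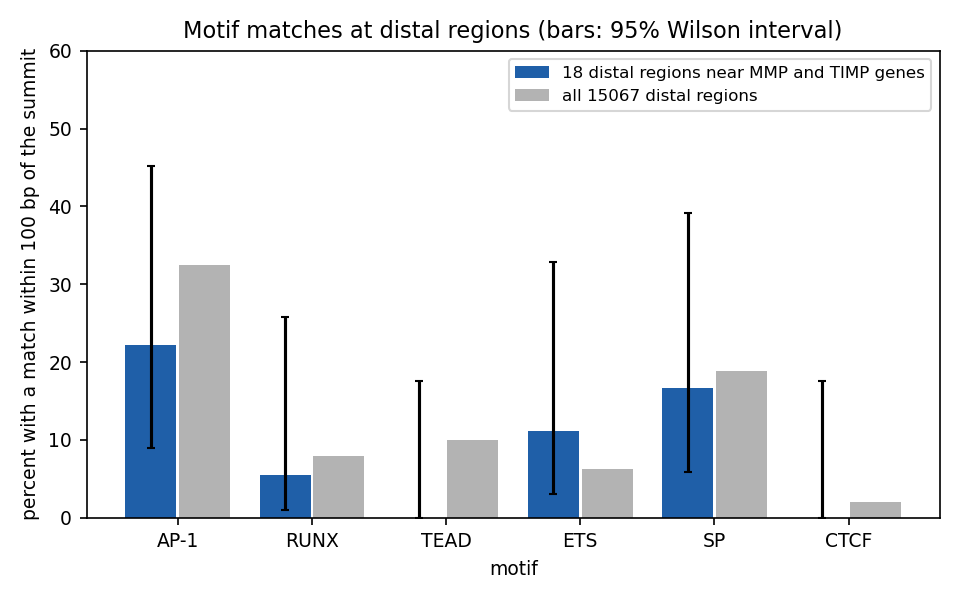
Percent of distal shared regions with a match of each motif within 100 bp of the summit (vertical axis), for the 18 regions in the MMP and TIMP spans (blue, with 95% Wilson intervals as error bars) and for all 15067 distal shared regions (grey). The grey bar of the AP-1 motif, at 32.5%, lies inside the interval of 9.0 to 45.2 around the blue bar at 22.2%.

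Among the 18 distal shared regions of the spans, 4 held the AP-1 motif at most 100 bp from the summit, or 22.2% (95% Wilson interval 9.0 to 45.2), against 32.5% of all distal shared regions. These were the MMP9 region and 3 regions of the TIMP2 span, and no distal shared region of the MMP2, MMP14, TIMP1 or chromosome 11 spans held it. The share depended on which summit and window were read. With the peaks of replicate 1 alone, each at its own summit, 8 of 20 distal peaks held the motif, or 40.0% (21.9 to 61.3) against 31.2% of all distal peaks of that replicate, and with those of replicate 2 alone 7 of 26 did, or 26.9% (13.7 to 46.1) against 30.6%. Within 50 bp of the summit the share was 11.1% against 22.3%, and over the whole region 38.9% against 38.2%. The value for all distal regions or peaks lay within the interval in each of these 5 readings, the interval being 3.10 to 32.8 within 50 bp and 20.3 to 61.4 over the whole region, so at these numbers of regions no difference from the background was detectable. The plot of motif shares shows the same at distal shared regions for the 5 other motifs. RUNX (TGTGGTT) occurred in 5.56% against 7.92%, ETS (AGGAAGT) in 11.1% against 6.21% and SP (GGGCGG) in 16.7% against 18.8%. TEAD (GGAATGT) and CTCF had no match in the 18 regions, for which the Wilson interval reaches 17.6%, and occurred in 1508 and 314 of all 15067 distal shared regions. All motifs were searched on both strands, intervals cover counting error only, and a match does not show that a factor was bound.

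The genes that act with these enzymes were read in the same way. Among 40 further matrix proteases, activators and inhibitors 16 had a promoter peak in both replicates, or 40.0% against the 52.3% of all genes. These 40 were not matched to other genes on CpG count, with which the share of promoter peaks rises. Other settings gave 14 to 22 of the 40, for which no share of all genes is given. Among the 16 other MMPs there were 2, MMP16 with a mean fold enrichment of 9.39 ± 0.942 and MMP15 with 4.97 ± 0.660 (SD, n = 2), both membrane-type enzymes like MMP14. Among 6 other inhibitors there were 4, among them the serine protease inhibitor SERPINE2 (9.43 ± 1.61), TFPI2 (7.23 ± 0.669) and the membrane-anchored MMP inhibitor RECK (6.16 ± 1.86), and TIMP4 had a peak in replicate 2 only. Among 6 activators there were 2, the plasminogen activator PLAT (7.73 ± 2.85) and BSG (5.28 ± 0.857), which induces MMPs, whereas PLAU, PLAUR, FURIN and PLG had none within 1 kb. The nearest peak of either replicate lay just outside this window at PLAUR (1.05 kb) and FURIN (1.14 kb), and 3.85 kb away at PLAU and 30.9 kb at PLG. Among 12 further metalloproteinases there were 8, led by the shedding proteases ADAM10 (14.5 ± 2.19), ADAM17 (13.7 ± 0.545), ADAM9 (12.1 ± 1.25) and ADAM19 (10.8 ± 1.02), all above the means of TIMP1 and TIMP2.

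The label of the cells as epithelial was read against marker genes, beside the 52.3% of all protein-coding genes with a promoter peak in both replicates. Of 12 epithelial marker promoters 1 (KRT18) had such a peak (8.33%), against 8 of 12 mesenchymal (66.7%), 1 of 5 haematopoietic (CD14) and 1 of 4 endothelial (KDR) markers, and CDH1 and EPCAM had none. The share of epithelial marker promoters thus lay below that of all genes. These promoter peaks did not bear out the label, and the cells are called B2B cells here. A marker promoter absent from the lists may still be open. These markers were not matched to other genes on CpG count.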

How the data were processed

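The material was 1 list of ATAC-seq peaks for each of 2 replicates of B2B cells, untreated. The authors mapped reads to hg38 with Bowtie2 2.4.4, removed duplicates with their own code and called peaks with MACS2 2.2.7.1, 1 list per replicate. The Tn5 shift, the handling of mitochondrial reads and the q limit are not given in the sources used here. The deposited fold enrichment is a ratio on a linear scale, and the authors' −log10 p and −log10 q belong to each summit. The deposited score was not used.

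Only peaks on autosomes, X and Y entered, and those of both replicates were merged into regions where they overlapped by at least 1 bp. The lists hold no read totals. Summit fragments were obtained by solving the fold enrichment together with the −log10 p, within 0.01, for 99.7% and 99.8% of peaks, with a genome-wide background of 4.77 and 3.41 fragments in replicates 1 and 2. They are units of the MACS2 coverage at the summit, and the lists do not tell paired fragments from extended single reads. Genes and TSSs were those of GENCODE 44, of the same build. All 10 genes were named, with every peak of their spans, and other genes by fixed lists with at most 4 examples each, and 1 listed gene is not reported here. Genes, lists and settings were chosen with earlier results of these data known. No test between groups was possible. Overlap, motif search and the fragment solution were tested on simulated data. Python 3.11.15, numpy 2.4.6, pandas 2.3.3, scipy 1.17.1, pysam 0.24.0 and matplotlib 3.10.9 were used.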

Additional observations from a re-analysis of the deposited data

How the results depend on the processing

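The counts of promoters and regions, the percent with the AP-1 motif and the promoter fold enrichment of TIMP1 and TIMP2 were recomputed, each where it applied, with peaks of −log10 q 5 or more, with the same number of top peaks from each list, with 50% of each peak overlapping, with other promoter windows and TSSs, spans of 25 and 100 kb, the whole chromosome 11 cluster, other motif windows and spellings, and each replicate alone. Over 35 such values, the TIMP1 and TIMP2 means stayed at 5.54 and 5.59 with promoter windows of 500 bp and 3 kb, every count stayed within 1.5 times its main value, and every percent, from 11.1% to 40.0%, within the main Wilson interval. Members with a promoter peak numbered 2 or 3, and shared regions in the spans ranged from 20 to 37. Promoters of related genes with a peak ranged from 14, with equal numbers of top peaks, to 22, with a window of 3 kb. No share of all genes at the other settings is given beside these promoter counts. Leaving out a replicate gave 3 member promoters in either case and 16 to 20 promoters of related genes. In place of shared regions it counted the peaks of the remaining list, 29 to 36 in the spans. Of the distal peaks 26.9% to 40.0% held the motif. No paired analysis was possible because only 1 condition was analysed here. With 2 replicates and at least 16 or 13 fragments needed at a summit, weak sites fall below detection.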

Other observations

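A run of letters around the AP-1 motif was the same at the MMP9 region 15.2 kb upstream and the TIMP2 region 8.18 kb upstream. The longest run that both printed sequences share was TGACTCAGGCTGAAA, 15 bases. It occurred 9 times on chromosomes 1 to 22, X and Y of hg38 on either strand, and of the 25366 regions shared by the replicates only these 2 held it. The run was noticed in these sequences and then counted, so its share of the regions is a description of these letters and no test.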
